A study of Mus musculus with 12 samples.

Results

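Cohesin is the ring-shaped protein complex that holds sister chromatids together, and 9 genes encoding its core subunits were followed through sorted cells of the mouse fetal ovary. They were taken by gene name from the 54532 genes of the deposited count table, as 4 meiotic subunits (Smc1b, Rec8, Stag3 and Rad21l) and 5 general subunits (Smc1a, Smc3, Rad21, Stag1 and Stag2). The rule that picked them used names and no expression level, but the members were chosen with earlier results of these data known.

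The RNA came from ovaries of E15.5 embryos carrying the Tg(Pou5f1-EGFP)2Mnn reporter, in which a Pou5f1 transgene drives GFP in germ cells. Pregnant dams received either dexamethasone (dex, a synthetic glucocorticoid) at 10 µg per g body weight or saline by intraperitoneal injection once on each day from E12.5 to E15.5. Flow sorting separated the GFP+ germ cells from the GFP- somatic cells, so all 4 groups (germ saline, germ dex, somatic saline, somatic dex) carried the same reporter and differed in cell fraction and injection. Each group held 3 libraries, each prepared from ovaries pooled from at least 2 whole litters dosed separately, and the embryos were not analysed one by one. Somatic libraries held every GFP- cell type of the ovary, and in such bulk samples fewer cells of a type and less RNA per cell cannot be told apart.

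A cohesin ring is built from a pair of SMC proteins, which are long hinged ATPases, closed by a kleisin subunit to which a STAG protein is attached. SMC3 is shared by all rings. In mitotic cells its partners are SMC1A, the kleisin RAD21 and either STAG1 or STAG2. Germ cells entering meiosis make further versions of each remaining position: SMC1B in place of SMC1A, the kleisins REC8 and RAD21L in place of RAD21, and STAG3 in place of STAG1 or STAG2. These form the chromosome axis on which homologs pair and recombine, and in oocytes they have to hold chromatids together until the meiotic divisions resume. At E15.5 female germ cells are in the early part of meiotic prophase I.

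The 4 meiotic genes lie on different chromosomes (GRCm38, gene spans as deposited): Smc1b at chr15:85064689-85131964 on the minus strand, Rec8 at chr14:55618037-55625395 on the plus strand, Stag3 at chr5:138280240-138312393 on the plus strand and Rad21l at chr2:151645404-151668533 on the minus strand. Of the general genes, Smc1a (chrX:152016428-152062694) and Stag2 (chrX:42149317-42277185) are X-linked, Rad21 (chr15:51962240-51991747) is on the chromosome that carries Smc1b, and Smc3 (chr19:53600398-53645833) and Stag1 (chr9:100597798-100959375) are on autosomes of their own. In the GENCODE M21 annotation, 8 of the 9 genes share no exon base with another gene, and Stag2 shares 28 exon bases with the minus-strand Gm37564. Of all stretches of 50 bases in the longest transcript of each gene, 1.56% in Smc3 and 0.06% in Stag3 also occur in a transcript of another gene, and none in the other 7, so that the paralogs compared here do not share reads of that length.

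The proximal promoters of the meiotic genes are shown because these genes differed so widely in level, as described next. Each is the part of the 250 bases before the RefSeq start (GRCm38.p6) that lies upstream of all annotated exons of the gene, read on the strand of the gene. Capitals mark matches to TCCCGC, the core of an E2F-type site, or, on either strand, to AGAACA, a motif that forms 1 arm of glucocorticoid receptor sites. They are chr15:85131965-85132207 (minus strand) for Smc1b, chr2:151668534-151668783 (minus strand) for Rad21l and chr14:55617916-55618036 (plus strand) for Rec8.
Smc1b: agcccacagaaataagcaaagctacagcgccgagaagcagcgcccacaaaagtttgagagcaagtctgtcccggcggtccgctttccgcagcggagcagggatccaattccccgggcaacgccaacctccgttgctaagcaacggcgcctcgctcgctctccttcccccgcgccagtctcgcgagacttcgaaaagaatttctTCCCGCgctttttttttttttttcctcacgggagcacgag
Rad21l: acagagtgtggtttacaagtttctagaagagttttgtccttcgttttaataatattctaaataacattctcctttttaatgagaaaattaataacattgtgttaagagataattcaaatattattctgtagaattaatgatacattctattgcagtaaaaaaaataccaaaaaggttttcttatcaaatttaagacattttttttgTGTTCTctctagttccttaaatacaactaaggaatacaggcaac
Rec8: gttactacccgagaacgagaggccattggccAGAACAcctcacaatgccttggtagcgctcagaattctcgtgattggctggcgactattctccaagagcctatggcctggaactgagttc

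For Stag3 the whole window lay within an annotated exon and is not printed. RefSeq windows were found for 7 of the 9 genes, Rad21 and Stag2 having no entry. Over the full 250 bases, searched on both strands, TCCCGC occurred in Smc1b, Rec8, Smc3 and Stag1 and in 16.9% of 32851 promoters, and the match of Rec8 fell downstream of the stretch printed. AGAACA occurred in Rec8 and Rad21l and in 16.1% of promoters. The E-box CACGTG, held by 6.02% of promoters, occurred in Stag3, and CNCCTCAG, a site type described for the meiotic factor STRA8 and held by 6.42% of promoters, occurred in none of the 7. These matches describe letters in a window and are not evidence of binding.

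The libraries held 14658503 to 18245507 counted fragments. Pou5f1, whose transgene was the basis of the sort, was higher in germ cells, with 14.2 to 25.8 CPM (counts scaled to a common library size) in the germ saline libraries and a summed count of 3 in the somatic saline libraries. Of 10 germ cell markers, 9 were higher and 1 (Dnd1) lower in germ than somatic cells in saline, and all 30 markers of pregranulosa, stromal, endothelial, erythroid, macrophage and perivascular cells were lower. Over all genes tested, 43.1% were called higher and 42.9% lower in that comparison. Germ markers summed to 4050 to 4680 CPM in germ libraries and to 15.6 to 36.6 CPM in somatic libraries. Fkbp5, a glucocorticoid receptor target, rose with dex in somatic cells by 1.29 on the log2 scale (edgeR quasi-likelihood test, adjusted p = 2.61e-07), and its difference in germ cells was 0.33 (adjusted p = 0.162).

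Germ cells and somatic cells carried different sets of cohesin transcripts. In germ cells of saline-treated dams the levels, as mean FPKM (fragments counted, divided by gene length and library size, the scale used here to compare genes of different length), ran in the order Smc1b, Stag3, Rad21l, Smc3, Smc1a, Rad21, Stag2, Stag1 and Rec8. In somatic cells of the same dams the order was Rad21, Smc1a, Smc3, Stag2, Stag1, Rec8, Stag3, Smc1b and Rad21l. Smc1b, Stag3 and Rad21l thus headed the germ cell order, whereas Rec8 stood last in it. Neighbours in both orders had ranges that did not overlap, except Smc1a and Smc3 in somatic saline cells. In dex the germ order was unchanged, with overlap between Stag2 and Stag1, and in the somatic order Stag3 stood before Rec8, with overlap between those genes and between Smc1a and Smc3. Summed over genes, the meiotic subunits came to 761.3 ± 66.3 FPKM (SD, n = 3) in germ saline libraries and 10.3 ± 0.4 in somatic saline libraries, while the general subunits came to 124.0 ± 5.7 and 153.8 ± 5.0 FPKM.

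**Figure D1:**
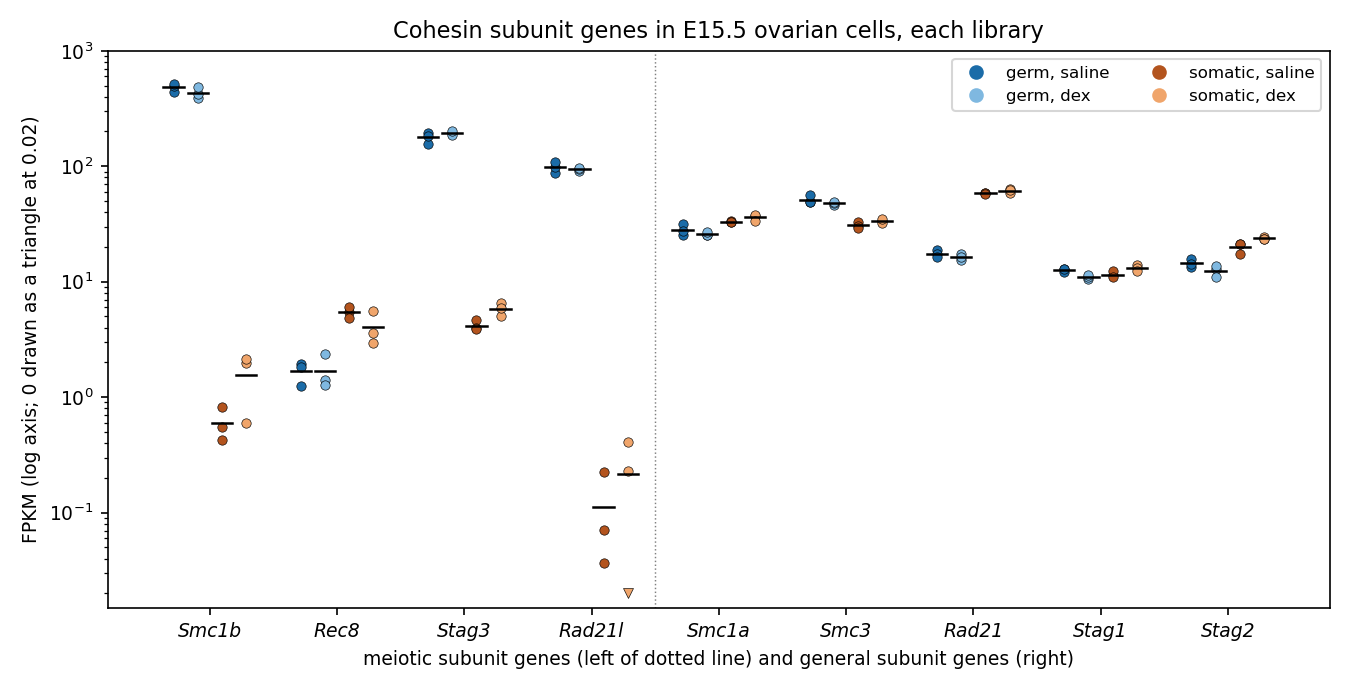
FPKM of each cohesin subunit gene (log axis) in each of the 12 libraries, by group (points, libraries; bars, means of 3; a value of 0 is drawn as a triangle). Smc1b, Stag3 and Rad21l stand far higher in germ than somatic libraries, Rec8 and Rad21 lower, and the other general genes lie close together.

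Smc1b encodes the meiotic partner of SMC3. Its level was 440.0, 497.3 and 512.7 FPKM in the germ saline libraries and 389.7, 424.1 and 488.8 FPKM in the germ dex libraries, against 0.423, 0.817 and 0.553 FPKM in somatic saline and 0.593, 1.98 and 2.13 FPKM in somatic dex libraries. All germ libraries were far above all somatic ones. By mean FPKM Smc1b ranked 30 among all genes in germ saline cells, of which 12991 were above 1 FPKM. The log2 difference between germ and somatic cells, taken from the counts, was 9.61 ± 0.16 (SE) in saline (edgeR quasi-likelihood test, adjusted p = 1.31e-15) and 8.04 ± 0.35 in dex (adjusted p = 2.21e-09).

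Smc1a, its mitotic counterpart, differed much less between the cell fractions. It was at 31.5, 25.5 and 27.3 FPKM in germ saline and 33.3, 33.0 and 32.7 FPKM in somatic saline libraries, with no overlap between the groups, and at 25.2, 25.4 and 27.0 against 37.4, 37.5 and 33.7 FPKM in dex. The log2 difference, germ minus somatic, was -0.28 ± 0.08 in saline (edgeR adjusted p = 0.00398) and -0.55 ± 0.07 in dex (adjusted p = 2.02e-05). Smc1b therefore made up 94.5% ± 1.0 (SD, n = 3) of the summed FPKM of the pair in germ saline cells and 1.78% ± 0.59 in somatic saline cells.

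Smc3, present in every form of the ring, was the only general subunit that was higher in germ cells. It was at 48.7, 49.1 and 56.3 FPKM in germ saline and 33.0, 30.6 and 29.2 FPKM in somatic saline libraries, and at 46.1, 48.5 and 49.3 against 33.7, 32.3 and 34.6 FPKM in dex. The groups did not overlap, and the log2 difference was 0.68 ± 0.08 in saline (edgeR adjusted p = 1.11e-06) and 0.45 ± 0.07 in dex (adjusted p = 6.87e-05). In FPKM, the ratio of Smc1b to Smc3 was 9.43 ± 0.62 (SD) in germ saline cells, while in somatic saline cells that of Smc1a to Smc3 was 1.07 ± 0.06.

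The kleisins showed the widest contrast among members of a family. Rad21l, a kleisin of early prophase axes, was at 88.2, 99.1 and 109.3 FPKM in germ saline and 91.0, 95.3 and 96.6 FPKM in germ dex libraries. In somatic libraries it was close to the limit of detection, with 1, 6 and 2 fragments in saline and 0, 7 and 12 in dex. The summed counts of 9 and 19 have exact 95% Poisson intervals of 4.12 to 17.1 and 11.4 to 29.7, which cover counting error only. The log2 difference between germ and somatic cells was 9.71 ± 0.21 in saline (edgeR adjusted p = 6.7e-15) and 8.67 ± 0.26 in dex (adjusted p = 1.99e-10), values that rest on these few somatic fragments.

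Rec8, the kleisin that keeps sister centromeres joined through the first meiotic division, went against the label of a meiotic subunit in these libraries. It was at 1.24, 1.95 and 1.83 FPKM in germ saline and 1.41, 1.26 and 2.36 FPKM in germ dex libraries, corresponding to 56 to 117 fragments. In somatic libraries it was at 5.48, 4.80 and 6.02 FPKM in saline and 2.93, 3.59 and 5.63 FPKM in dex, from 147 to 300 fragments. Each somatic library exceeded every germ library. Rec8 was lower in germ than somatic cells by a log2 difference of -1.74 ± 0.19 in saline (edgeR adjusted p = 5.52e-07) and -1.34 ± 0.30 in dex (adjusted p = 0.00163).

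By mean FPKM, Rec8 ranked 11261 in germ saline cells, where Stag3 ranked 129 and Rad21l 287. Its level in germ libraries was 22.01% to 34.8% of the somatic mean in saline and 29.9% to 55.4% in dex. On the same scale the mean levels of 30 markers of the somatic cell types ran from 0.0112% to 21.9% with a median of 1.84% in saline, and from 0% to 44.4% with a median of 1.92% in dex. The endothelial marker Pecam1 was the 1 marker of the 30 that reached the lowest Rec8 value of the same treatment in any germ library, at 11.4% to 29.3% in saline and 41.6% to 49.0% in dex. The part of somatic transcripts in the Rec8 level of the germ libraries was not tested. The annotated 3′ end of Ipo4, on the opposite strand, lies 4 bases beyond the end of Rec8, and since the strand setting of the counting is not stated, reads running past it could not be assigned with certainty. Ipo4 was at 4.57 to 6.69 FPKM in germ saline and 10.6 to 11.1 FPKM in somatic saline libraries, and its part in the counts of Rec8 was not tested.

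Rad21, the mitotic kleisin, was at 18.7, 17.3 and 16.3 FPKM in germ saline and 59.2, 58.1 and 57.8 FPKM in somatic saline libraries, and at 15.4, 17.3 and 16.4 against 63.8, 58.3 and 62.5 FPKM in dex. No germ library came near a somatic one. It was the general subunit with the largest difference of the 5, at -1.79 ± 0.07 in saline (edgeR adjusted p = 5.21e-12) and -1.98 ± 0.07 in dex (adjusted p = 7.73e-10). These values are near those of Rec8. Within the summed FPKM of the 3 kleisins, Rad21l made up 83.7% ± 2.1 (SD, n = 3) and Rec8 1.41% ± 0.25 in germ saline cells, whereas Rad21l made up 0.175% ± 0.160 and Rec8 8.50% ± 0.90 in somatic saline cells.

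Stag3, the only STAG protein specific to meiosis, was at 156.0, 192.6 and 183.8 FPKM in germ saline and 193.3, 184.9 and 199.9 FPKM in germ dex libraries. In somatic libraries it was at 4.65, 3.97 and 3.89 FPKM in saline and 5.07, 6.49 and 5.93 FPKM in dex. The germ and somatic ranges were far apart, and the log2 difference was 5.36 ± 0.11 in saline (edgeR adjusted p = 5.47e-15) and 4.98 ± 0.11 in dex (adjusted p = 3.86e-11). Of the 3 STAG genes Stag3 made up 86.6% ± 1.9 (SD, n = 3) of the summed FPKM in germ saline cells and 11.7% ± 1.0 in somatic saline cells.

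Stag1 and Stag2 occupy the same position in mitotic rings and are alternatives to each other. Stag2 was at 15.8, 13.3 and 14.4 FPKM in germ saline and 21.2, 21.2 and 17.5 FPKM in somatic saline libraries, without overlap, and was lower in germ cells by a log2 difference of -0.51 ± 0.09 (edgeR adjusted p = 7.59e-05). In dex it was at 12.9, 13.7 and 11.0 against 24.6, 23.3 and 23.5 FPKM, a difference of -0.995 ± 0.087 (adjusted p = 8.52e-07). Stag1 was at 12.8, 12.2 and 12.9 FPKM in germ saline and 11.3, 12.3 and 11.0 FPKM in somatic saline libraries. These ranges overlapped and Stag1 did not pass the test in saline (log2 difference 0.09, 95% interval -0.07 to 0.24, edgeR adjusted p = 0.265). In dex the groups separated, at 10.5, 11.0 and 11.3 against 14.0, 13.2 and 12.46 FPKM, and Stag1 was lower in germ cells (-0.34 ± 0.07, adjusted p = 0.00072).

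In saline 8 of the 9 genes thus passed the test of germ against somatic cells, 4 with the higher level in germ cells (Smc1b, Rad21l, Stag3 and Smc3) and 4 lower (Rec8, Rad21, Stag2 and Smc1a). Over all genes tested in that comparison 86.1% passed, 43.1% higher and 42.9% lower. In dex all 9 passed, 4 higher and 5 lower, against 84.3% of all genes, 42.0% higher and 42.2% lower. A call is therefore near the rule in this comparison, and it is the size of the differences that sets Smc1b, Rad21l and Stag3 apart from the other 6, which lay between -1.79 and 0.68 in saline. The median log2 difference was 7.49 for the 4 meiotic and -0.28 for the 5 general genes in saline, and 6.51 and -0.55 in dex, beside a median over all genes tested of 0.00 in both.

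**Figure D2:**
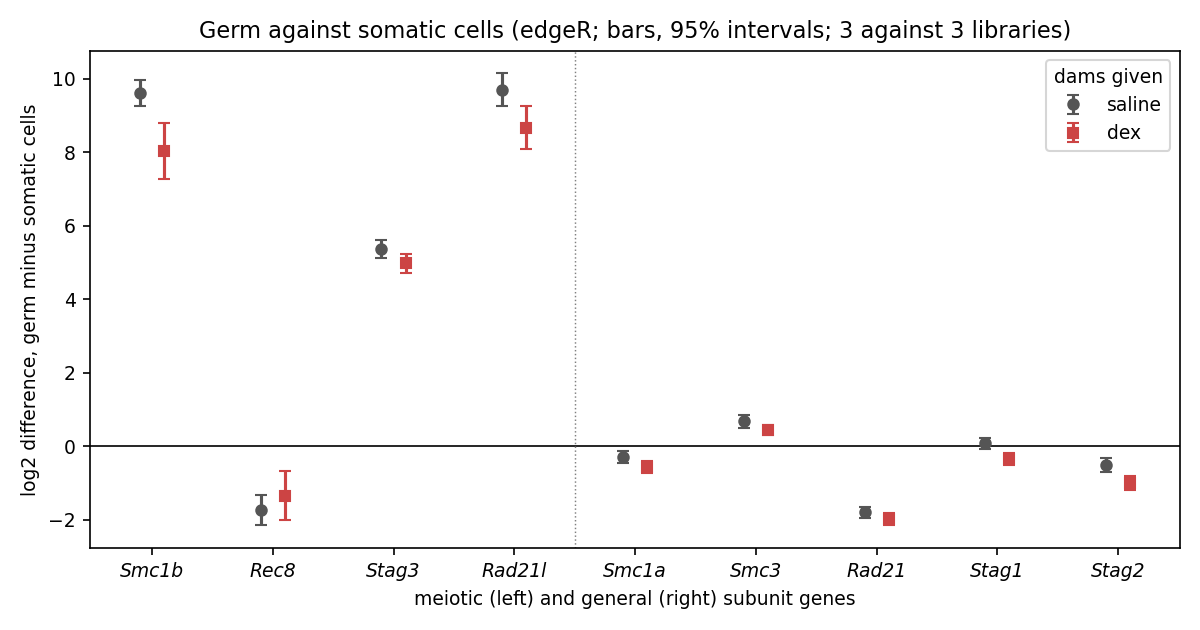
Log2 difference between germ and somatic cells for each gene in saline (circles) and dex (squares), from edgeR with 95% intervals, 3 against 3 libraries. Smc1b, Rad21l and Stag3 lie between 4.98 and 9.71, Rec8 and Rad21 between -1.34 and -1.98, and Smc1a, Smc3, Stag1 and Stag2 within 1 of zero.

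The families' composition followed from these levels. The meiotic form held the greater share of every family in germ cells, and the general form in somatic cells, with the Rec8 share alone running the other way. Since the shares are formed from FPKM, they depend on the annotated exon lengths. When raw counts were used instead, the share of Rad21l and Rec8 together among kleisins in germ saline cells was 69.5% in place of 85.1%, and that of Stag3 among STAG genes was 79.0% in place of 86.6%. Between Stag1 and Stag2, Stag1 held 46.7% ± 1.7 of the FPKM in germ saline and 36.7% ± 1.9 in somatic saline cells.

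**Figure D3:**
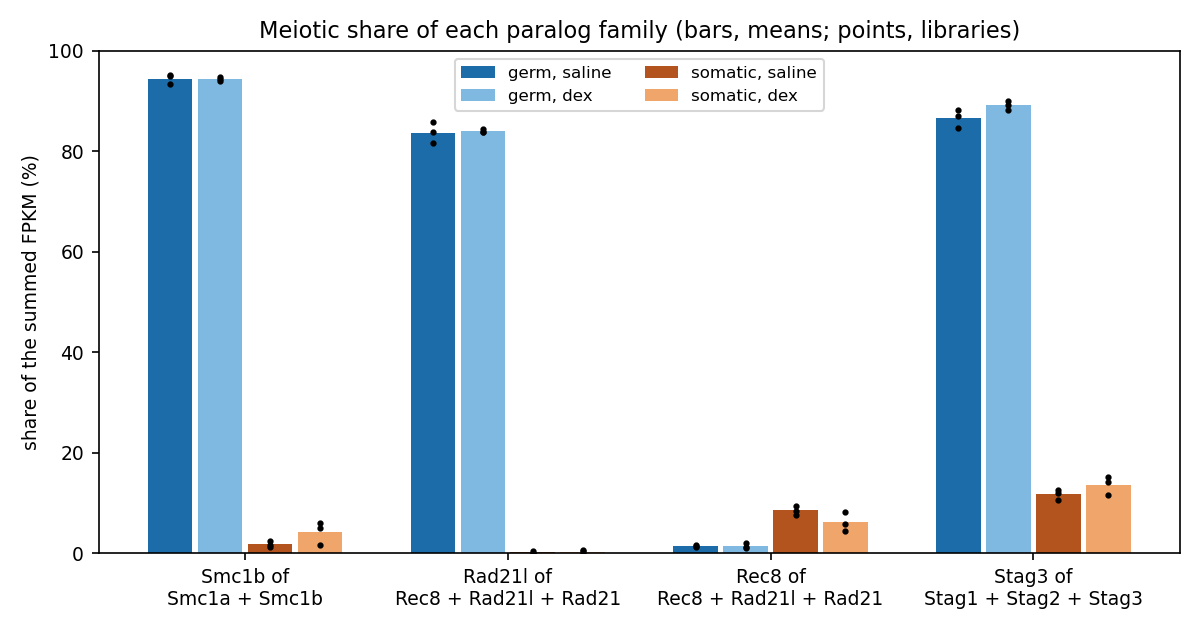
Share of the summed FPKM of each paralog family held by the meiotic gene (bars, means of 3 libraries; points, libraries). In germ cells Smc1b, Rad21l and Stag3 hold 81.6% to 95.1% of their families, while Rec8 holds 1.11% to 2.04% there and 4.39% to 9.42% in somatic cells.

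No cohesin gene was called for dex in germ cells. The edgeR test called 0 of 9, as did DESeq2, and 1 (Stag1) had an unadjusted p under 0.05, against 0.208% of all genes called (0.0890% higher and 0.119% lower) and 11.6% with an unadjusted p under 0.05. For the genes of highest level the 95% intervals were narrow. The log2 difference, dex minus saline, was -0.13 (-0.31 to 0.04) for Smc1b (adjusted p = 0.566), 0.14 (-0.03 to 0.31) for Stag3 (adjusted p = 0.528) and -0.05 (-0.21 to 0.12) for Rad21l (adjusted p = 0.85). For Rec8, with its low counts, it was 0.02 with an interval from -0.56 to 0.61 (adjusted p = 0.984). Changes within that interval were not resolved with these libraries.

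All 5 general subunits had negative values in germ cells, from -0.19 to -0.07, with a median of -0.10. Stag1 was at -0.19 (95% interval -0.32 to -0.06, adjusted p = 0.271), and its 3 dex libraries all lay below its 3 saline libraries. The share of all genes that separated in this way is not given here. Stag2 was at -0.19 (-0.39 to 0.01, adjusted p = 0.462), Smc1a at -0.10, Smc3 at -0.08 and Rad21 at -0.07, all with overlapping groups. Of all genes tested in germ cells, 47.0% had negative values.

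In somatic cells 1 of the 8 genes tested was called, against 8.18% of all genes, 4.81% higher and 3.36% lower. Stag3 rose with dex, from 27.4, 23.5 and 23.0 CPM in saline to 30.0, 38.2 and 35.5 CPM, a log2 difference of 0.49 ± 0.12 (edgeR adjusted p = 0.0202). All dex libraries were above all saline libraries, though the share of all genes that separated so is not given here. The call was lost when somatic dex replicate 2, somatic saline replicate 2 or somatic saline replicate 3 was left out (adjusted p = 0.104, 0.0936 and 0.103). DESeq2 called 3 genes, adding Smc1b and Stag2.

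Smc1b had the largest difference of the 8 but did not pass the test. It was at 1.76, 3.42 and 2.31 CPM in somatic saline and 2.48, 8.22 and 8.98 CPM in somatic dex libraries, so that dex replicate 1 lay within the saline range and the other dex libraries above it. The log2 difference was 1.39 (95% interval 0.51 to 2.28, edgeR adjusted p = 0.0541). Without somatic dex replicate 1 it was 1.78 (adjusted p = 0.00131). Rad21l was too low in these libraries to be tested.

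Among germ cell markers Dazl, which encodes an RNA-binding protein of germ cells, was the only one called for dex in these libraries. The summed level of all 10 markers was 15.6 to 19.99 CPM in somatic saline and 22.4 to 36.6 CPM in somatic dex libraries, and without Dazl it was 14.4 to 18.6 and 9.48 to 24.0 CPM, with overlap, with 9 of 10 markers detected in every somatic library and Dppa3 at 0 in all dex libraries. Of the 9 markers tested 1 was called, beside 8.18% of all genes. This was Dazl, which rose by 3.43 on the log2 scale (edgeR adjusted p = 2.92e-07). Of the same 9, 5 had negative values and the median was -0.11. The 4 with positive values were Dazl, Mov10l1 (1.78, edgeR adjusted p = 0.0732), Mael (0.82) and Ddx4 (0.65). The markers other than Dnd1, which was not higher in germ cells here, give a rough scale for germ cell transcripts in the somatic fraction. Dazl included, they did not share 1 level, with means in somatic saline from 0.0787% (Mov10l1) to 1.69% (Tdrd1) of the germ level. As a percentage of the mean germ cell level, their medians were 0.111%, 0.267% and 0.395% in the somatic saline and 0.152%, 0.410% and 0.622% in the somatic dex libraries.

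On the same scale Smc1b was at 0.0910% to 0.177% in somatic saline and 0.141% to 0.511% in somatic dex, and Rad21l at 0.0388% to 0.238% and 0% to 0.456%. Smc1b lay below the marker median in 5 of the 6 somatic libraries, the exception being dex replicate 2, and Rad21l in all 6. Stag3 was at 2.28% to 2.72% in saline and 2.71% to 3.46% in dex, above the marker median of every library. Rec8 was at 299.7% to 374.3% and 180.9% to 351.3%. The part of germ cell transcripts in the somatic differences of Smc1b and Stag3 was not tested.

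**Figure D4:**
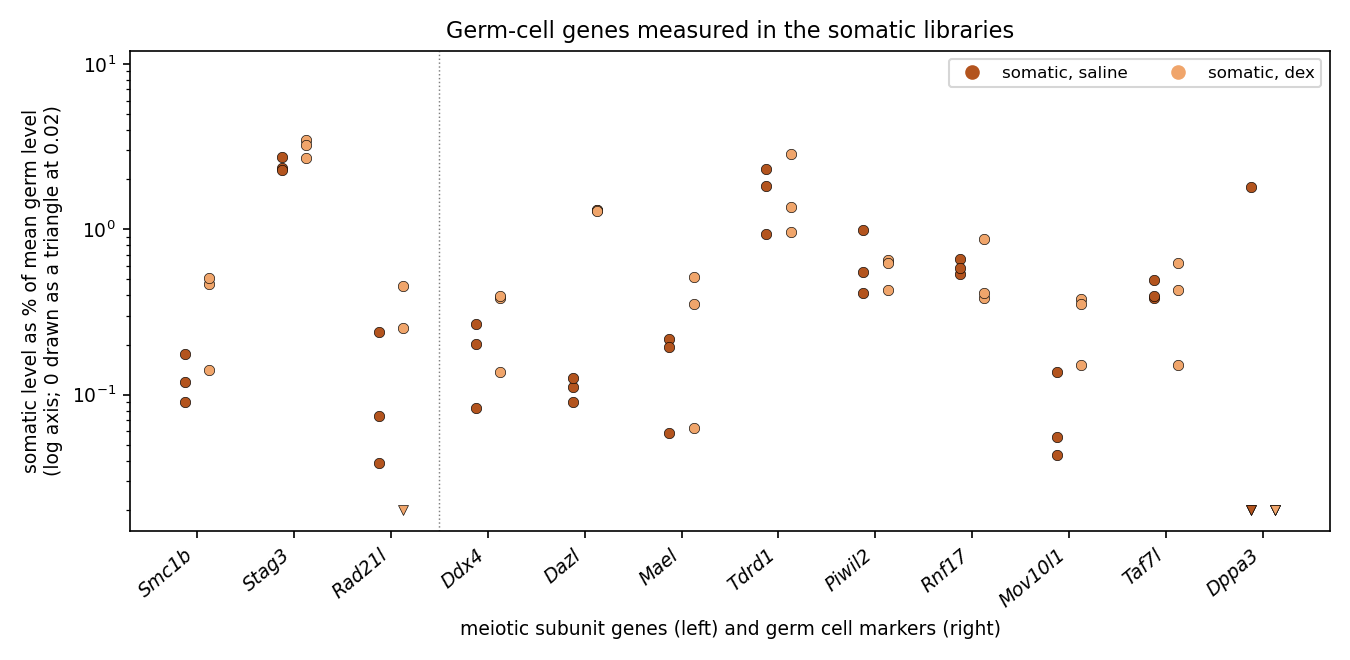
Level in each somatic library as a percentage of the mean level in germ libraries of the same treatment (log axis; dark, saline; light, dex; zeros as triangles) for 3 meiotic subunit genes and 9 germ cell markers. Smc1b and Rad21l lie in the range of the markers, and Stag3 lies above most of them at 2.28% to 3.46%.

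Rec8 in somatic cells was at 16.5, 14.6 and 18.2 CPM in saline and 8.88, 10.8 and 17.2 CPM in dex. Its dex libraries were spread widely, replicate 3 lying within the saline range, and the difference of -0.42 (95% interval -0.86 to 0.02) did not pass the test (edgeR adjusted p = 0.264). Without somatic dex replicate 3 it was -0.74 (adjusted p = 0.00558). This was the 1 alternative of 11 in which the call changed. Over the 11 the difference ran from -0.74 to -0.23, with adjusted p (edgeR or DESeq2) up to 0.565. Macrophage markers, among the somatic cell types, summed to 108.0 to 144.0 CPM in saline and 30.7 to 75.9 CPM in dex. Of 5 macrophage markers 3 were called lower, and of 4 endothelial markers 2. Over all 30 somatic markers 6 were called lower and 2 higher, beside 3.36% and 4.81% of all genes. Whether these changes bear on Rec8 was not tested.

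The 5 general subunits all had positive values in somatic cells, from 0.08 to 0.26, with a median of 0.13, and none passed the edgeR test, while 3 had an unadjusted p under 0.05 (20.9% of all genes did) and DESeq2 called 1 (Stag2). About as many of all genes tested had negative as positive values in this comparison. Sign counts of cohesin regulators and relatives in both fractions are given below. Stag2 was at 179.9, 181.4 and 149.0 CPM in saline and 209.9, 198.0 and 203.0 CPM in dex, without overlap (log2 difference 0.26, 95% interval 0.09 to 0.42, adjusted p = 0.0594). Stag1 was at 137.1, 149.3 and 133.3 CPM in saline and 170.0, 159.6 and 153.3 CPM in dex, also without overlap (0.20, 0.05 to 0.34, adjusted p = 0.0962). Smc1a, again without overlap, was at 0.13 (0.00 to 0.27, adjusted p = 0.238). Smc3 was at 0.12 (adjusted p = 0.338) and Rad21 at 0.08 (adjusted p = 0.528), both with overlapping groups. How many of all genes separated in this way in somatic cells is not given here.

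**Figure D5:**
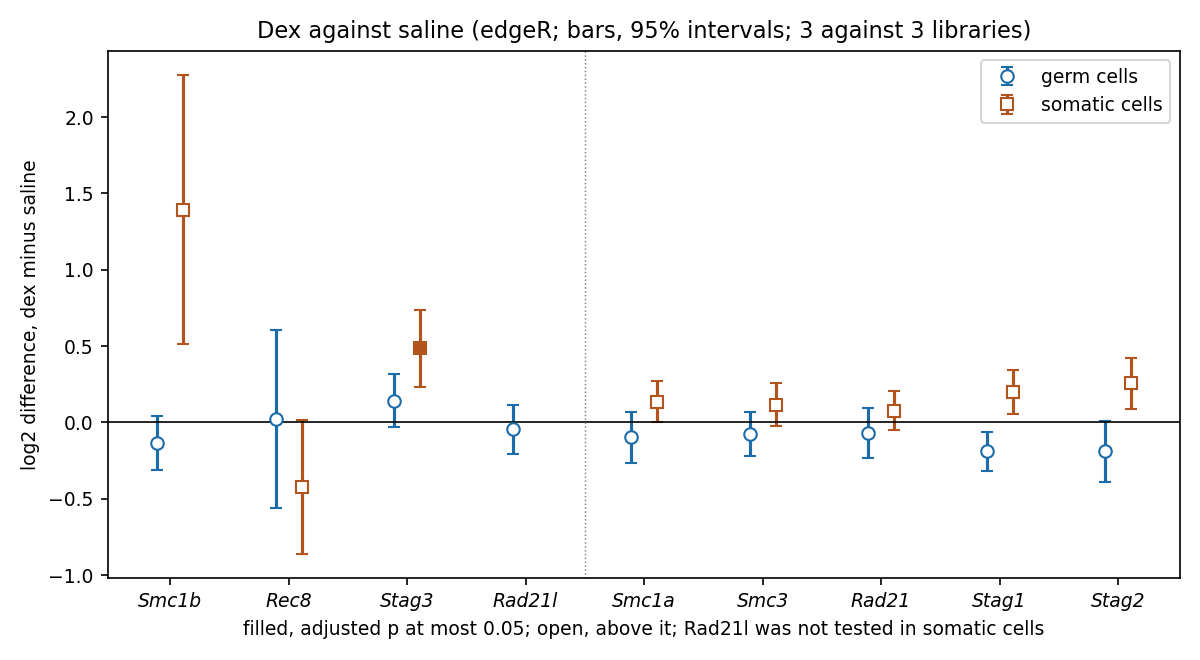
Log2 difference, dex minus saline, in germ cells (circles) and somatic cells (squares), from edgeR with 95% intervals, 3 against 3 libraries; filled symbols passed an adjusted p of 0.05. The general genes lie at -0.19 to -0.07 in germ cells and 0.08 to 0.26 in somatic cells, and Stag3 in somatic cells is the only filled symbol.

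Whether the dex difference itself differed between germ and somatic cells was tested with an interaction term over all 12 libraries, in which 1.62% of all genes were called, 0.490% with a higher value in germ cells and 1.13% with a lower. Stag1 was the only member called of the 9, with a difference of -0.40 ± 0.09 (edgeR adjusted p = 0.0386). This compares 149.3, 143.5 and 149.4 CPM in germ saline and 126.3, 128.1 and 131.7 CPM in germ dex libraries with the somatic values above: dex libraries were lower than saline libraries in germ cells and higher in somatic cells. The call was lost in 9 of the 12 fits that each left out a library (each germ dex library, germ saline replicates 1 and 3, somatic dex replicates 1 and 2, and somatic saline replicates 1 and 3), with adjusted p up to 0.121. For Stag2 the difference was -0.46 ± 0.13 (adjusted p = 0.109), for Smc1b -1.54 ± 0.39 (adjusted p = 0.0619) and for Stag3 -0.35 ± 0.14 (adjusted p = 0.234). DESeq2 called Stag2 besides Stag1. With same-numbered germ and somatic libraries of each treatment fitted as blocks, the Stag1 call was lost as well.

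Cohesin depends on proteins that load, acetylate, protect and cleave it, and the condensin and SMC5/6 complexes are its relatives. Of 33 such genes, Ctcf included, 32 were tested between germ and somatic cells in saline. There 21 were called higher and 9 lower, beside 43.1% and 42.9% of all genes. As for the subunits, a call was near the rule here. Meikin, which helps to protect centromeric cohesion in meiosis, was at 11.3 to 13.0 CPM in germ saline libraries and 0 in all 3 somatic saline libraries, so that it was at least 61.8-fold higher when the somatic level is set to 3 fragments per library. Esco2, an acetyltransferase of SMC3, was higher by 3.85 on the log2 scale, the condensin subunit Ncapg by 3.74 and the checkpoint kinase Bub1 by 3.44 (edgeR adjusted p = 3.06e-14, 1.23e-14 and 1.17e-13).

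The largest differences in the other direction were those of Aurkb, a kinase of the mitotic chromosomal passenger complex, at -5.50 (edgeR adjusted p = 3.51e-13), Nsmce4a, an SMC5/6 subunit, at -2.32 (adjusted p = 1.4e-11), Hdac8, the SMC3 deacetylase, at -1.74 (adjusted p = 1.12e-06) and the condensin subunit Ncapd2 at -1.12 (adjusted p = 2e-08). In a list of 6 genes, made of loading and release factors and of Ctcf, which is neither, 4 were higher in germ cells. The 2 lower were Pds5b and Ctcf, where 86.1% of all genes were called in either direction. All 4 genes of the axis proteins SYCP2, SYCP3, HORMAD1 and HORMAD2, which assemble on the meiotic cohesin core, were higher, with a median log2 difference of 8.35.

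No gene among these 33 was called for dex in either cell fraction, of 32 tested in germ cells and 31 in somatic cells, beside 0.208% and 8.18% of all genes. Unadjusted p was under 0.05 for 4 and 5 of them, where 11.6% and 20.9% of all genes were, and DESeq2 also called 0 in both. In the interaction test 1 of 32 was called, Smc6, a core subunit of the SMC5/6 complex, with -0.37 ± 0.09 (edgeR adjusted p = 0.0443). Smc6 had 381.6 to 398.9 CPM in germ saline and 347.3 to 351.4 CPM in germ dex libraries, against 109.9 to 115.5 and 119.4 to 135.0 CPM in somatic libraries. Within each fraction none of the 6 SMC5/6 genes was called for dex. In sign, the related complexes ran as the general subunits did. All 8 condensin and all 6 SMC5/6 genes were positive in somatic cells, and 7 and 5 of them negative in germ cells. Of 4 acetylation genes, 4 were positive in somatic and 3 negative in germ cells. In the loading and release list of 6, these numbers were 2 and 3. Of protection and cleavage genes, 3 of 7 tested were positive in somatic and 5 of 8 negative in germ cells.

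The genes nearest to each member in level over all 12 libraries were taken by the root mean square difference of log2(FPKM + 0.1). The search covered the 14508 genes whose mean FPKM was 1 or more. Since the distance uses these same levels, neighbours share a member's pattern by construction and add nothing on the division above. Nearest to Smc1b were Sycp3 (0.473) and Sycp1 (0.546), both encoding proteins of the synaptonemal complex. Nearest to Stag3 were Ybx2 (0.358) and Tex15 (0.363), and to Rad21l Tex11 (0.335) and Tex16 (0.413). Rec8 was nearest to Miga2 (0.297) and Vopp1 (0.302). The general subunits had closer neighbours, at 0.0816 to 0.157: Tram1 and Bmpr1a for Smc1a, Rab6a and Mcm3 for Smc3, Chd3 and Nisch for Rad21, Acd and Fam92a for Stag1, and Clint1 and Dusp7 for Stag2.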

How the data were processed

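RNA-seq was performed on 12 libraries of sorted E15.5 ovarian germ and somatic cells. Per the labels and methods, poly-A RNA was sequenced in paired reads, aligned to mm10 with Hisat2 (2.0.5) and counted per gene with featureCounts (1.5.0-p3). The strand setting and the treatment of reads with several alignments are not given in the sources used here. The deposited counts are raw fragments per gene, with no normalization. The FPKM values, also made by the authors, divide the counts by gene length and library total, with a further factor of 0.946 to 1.026 per library. The deposited table also gives exon lengths in bases. Tables of the authors' own DESeq2 (1.20.0) comparisons hold fold changes and p-values and were not used. 

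Counts were tested with edgeR (4.0.16) by the quasi-likelihood test after TMM scaling and filterByExpr, with Benjamini-Hochberg adjustment over all genes tested and a threshold of 0.05. Dex was compared with saline within each cell fraction (3 against 3 libraries), germ with somatic cells within each treatment, and the dex difference between fractions by an interaction term. SE was taken from the log2 difference and its F statistic, and 95% intervals from the t distribution on the fit's degrees of freedom. CPM uses TMM factors over 12 libraries, and a floor of 3 fragments is 0.169 to 0.201 CPM. The tests were checked on simulated data. Alternatives were RLE scaling, DESeq2 (1.42.0), no filter on low counts, a replicate block, all 12 libraries in 1 fit, each library left out, shares from raw counts and other settings for nearest genes.

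The members and gene lists were chosen with earlier results of these data known. Named genes were all members, the regulators called with dex, the 4 highest and 4 lowest regulators among calls of germ against somatic cells in saline, and the 2 genes nearest to each member. Pou5f1 and Fkbp5 were checks. Smc6, Dazl, Dnd1, Dppa3, Mov10l1, Tdrd1, Mael, Ddx4, Pecam1, Cdh5, Kdr, Tie1, Pds5b, Ctcf and Ipo4 were named after their values were seen. Samples were grouped from their labels. Replicate libraries differed beyond counting noise (chi-square over degrees of freedom of 5.48 or more), so that none was a duplicate. Replicate numbers were not taken as pairs. Promoters are from RefSeq (GRCm38.p6) and gene overlaps from GENCODE M21. Protein sequences were not used here.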

Additional observations from a re-analysis of the deposited data

Results flagged for a closer look

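The dex difference of Stag1 was flagged because it differed between the cell fractions by the interaction test. The difference was -0.40 ± 0.09 (SE) on the log2 scale, germ minus somatic (edgeR adjusted p = 0.0386). Dex minus saline was -0.19 in germ cells (95% interval -0.32 to -0.06) and 0.20 in somatic cells (0.05 to 0.34), neither of which passed the test in its own fraction. In germ cells 3 of 3 dex libraries were below every saline library, and in somatic cells 3 of 3 were above. The share of all genes with such a separation is not given here. The sign was the same in all 16 alternatives, in which the adjusted p ran from 0.00447 to 0.121 and the call was lost in 10.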

How the results depend on the processing

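Between germ and somatic cells, no member gained or lost a call or changed sign in any alternative run, in saline or dex. For dex in germ cells no member was called in any alternative. For dex in somatic cells the members called were 1 in the fit as reported, 3 with DESeq2 (Stag3, Smc1b, Stag2), 3 with no filter on low counts, 2 with all 12 libraries in 1 fit, and 0 to 4 when a library was left out. For the difference of the dex effect they were 1 as reported, 2 with DESeq2, 3 with no filter, and 0 to 1 when a library was left out. The replicate numbers do not mark a shared batch in the labels. Between germ and somatic cells, deviations of same-numbered libraries correlated weakly (r from 0.0665 to 0.108 in saline and 0.0782 to 0.121 in dex). Differently numbered ones all had negative r there, from -0.0843 to -0.014. Between dex and saline, same-numbered r ran from -0.00295 to 0.0826 in somatic and 0.00243 to 0.167 in germ cells. Whether same-numbered germ and somatic libraries share ovaries is not stated. With the replicate block, 0 members were called in germ cells, 3 in somatic cells, 8 and 9 between germ and somatic cells in saline and dex, and 0 for the difference. Smc1b in somatic cells had an adjusted p from 6.59e-06 to 0.2 over the alternatives, and Stag3 from 0.000774 to 0.104. Without somatic dex replicate 3, Rec8, Stag1 and Stag2 were also called there (adjusted p = 0.00558, 0.0404 and 0.0477). Genes called over all genes were 35 in germ cells as reported, 158 with DESeq2, 420 with no filter, 64 with all 12 libraries and 17 to 81 with a library left out. In somatic cells they were 1354, with 803 in the fit of 12 libraries and down to 754 with a library left out, and for the difference 314, 620 with DESeq2, 727 with no filter and down to 143. The cause of these changes was not tested. RLE scaling moved the median of all genes by at most 0.0781. Counts were low and varied between libraries for Rad21l in somatic cells (1 to 6 fragments in saline, 0 to 12 in dex). Smc1b had 28 to 53 and 41 to 151 fragments there. Rec8 had 56 to 98 fragments in germ saline and 57 to 117 in germ dex libraries.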
